A study of Mus musculus with 16 samples.

Results

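The regions described here are stretches of the mouse genome where RUNX1 and MyoD were both bound in proliferating myoblasts and where MyoG had no peak in early myotubes. They were chosen by the presence and absence of peaks in the 4 deposited peak lists: peaks of RUNX1, MyoD, c-Jun and MyoG on chromosomes 1 to 19 (mouse build mm9) that overlapped by at least 1 bp were merged, and merged regions with a RUNX1 and a MyoD peak but no MyoG peak were kept. Of 97753 merged regions, 1412 met this rule, which is 7.61% of the 18559 regions that held both RUNX1 and MyoD. Of these 1412 regions, 481 had no c-Jun peak and 931 had one, and both states are given apart throughout.

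Primary myoblasts were grown from satellite cells, the muscle stem cells, of the gastrocnemius of wild-type C57BL/6 mice aged 2 to 3 weeks. Chromatin immunoprecipitation followed by sequencing (ChIP-seq) was done for RUNX1, MyoD and c-Jun in proliferating myoblasts after 3 days in culture, and for MyoG in cells kept for a further 24 hours in low-serum differentiation medium with insulin. Each factor had 2 ChIP libraries from biological replicates and 2 control libraries (rabbit non-immune serum for RUNX1, mouse IgG for MyoD and MyoG, rabbit IgG for c-Jun), 16 samples in 8 groups. Factor and cell stage therefore differed together for MyoG, and a missing MyoG peak cannot be told apart as an effect of the factor or of the stage.

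MyoD and MyoG are related basic helix-loop-helix factors that bind E-box motifs; MyoD sets the muscle lineage in myoblasts, and MyoG is switched on as they leave the cell cycle and differentiate. RUNX1 is a Runt-domain factor that is kept low in healthy muscle fibres and is expressed in regenerating and denervated muscle. The proto-oncogene product c-Jun is a subunit of AP-1, a leucine-zipper dimer that responds to growth signals.

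Each list gave a position and a score per peak, written by the authors' peak caller, with 1 list per factor and no value for a single replicate. The lists of chromosomes 1 to 19 held 42226 RUNX1, 45201 MyoD, 41480 c-Jun and 61491 MyoG peaks, none with a score under 50. Many peaks sat at a score of exactly 3100, so strong peaks have no firm order. Raw scores were compared only within a list. No read counts were given, so the depth is unknown and a factor bound too weakly to give a peak is counted as absent. The lists allow no estimate of the spread between cultures, so the spread given is the standard deviation (SD) over 19 chromosomes, and intervals of shares are exact (Clopper-Pearson) 95% intervals over regions, which cover counting error only.

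MyoG was missing from a small share of the RUNX1-MyoD regions in both c-Jun states. The share was 6.78% (95% interval 6.20 to 7.39) of the 7096 regions without c-Jun and 8.12% (7.63 to 8.64) of the 11463 regions with c-Jun. By chromosome the share over both states ran from 5.44% on chromosome 7 to 10.6% on chromosome 13, with an SD of 1.38 percentage points. In numbers, chromosome 1 held the most regions, 112, and chromosome 19 the fewest, 46. These regions were thus spread over all 19 chromosomes.

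Most of the regions were simple, with 1 peak of each factor. Without c-Jun, 480 of 481 regions held a single RUNX1 peak and 479 a single MyoD peak. With c-Jun, 906 of 931 held a single RUNX1 peak, 910 a single MyoD peak and 917 a single c-Jun peak. Where a list had several peaks in a region, the highest score was used.

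The MyoD peaks of the MyoG-lacking regions were weak. Because the MyoD and RUNX1 lists chose the regions, their scores are given as a description, with no test. Without c-Jun, the MyoD score ranged from 50.4 to 1572 with a median of 96.2, against a median of 213.2 in the 6615 RUNX1-MyoD regions that held MyoG. With c-Jun, it ranged from 50.13 to 3224 with a median of 104.3, against 529.7 in the 10532 regions with all 4 factors. The median MyoD score was thus 2.22-fold lower without c-Jun (log2 ratio -1.15, SD 0.23 over chromosomes) and 5.08-fold lower with c-Jun (log2 ratio -2.34, SD 0.29), each lower on 19 of 19 chromosomes. A c-Jun peak went with a much higher MyoD score where MyoG was present, 529.7 against 213.2, and with almost the same MyoD score where MyoG was missing, 104.3 against 96.2. This last gap had the same direction on 13 of 19 chromosomes only.

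RUNX1 peaks were weaker too, by a smaller step. Without c-Jun the median RUNX1 score was 104.7 where MyoG was missing and 166.4 where it was present, a log2 ratio of -0.67 (SD 0.39), lower on 17 of 19 chromosomes. With c-Jun the medians were 150.3 and 342.9, a log2 ratio of -1.19 (SD 0.26), lower on 19 of 19 chromosomes. In the RUNX1 list as a whole the median score was 177.9, and 31.0% of the regions without c-Jun and 43.7% of those with c-Jun lay above it. For MyoD, with a list median of 176.9, these shares were 23.7% and 29.8%.

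The c-Jun peaks had nearly the same scores in both sets. At the 931 MyoG-lacking regions they ranged from 50.22 to 3204. Their median of 315.0 lay next to the 323.7 of the 10532 regions with MyoG, a log2 ratio of -0.04 with an SD of 0.36 over chromosomes, lower on 7 of 19. This comparison was not tested, and a spread of this size leaves room for differences in either direction. Above the median score of the c-Jun list, 172.5, lay 69.6% of the MyoG-lacking regions and 67.9% of those with MyoG. Ranked as percentiles of their own lists, c-Jun was the strongest of the 3 myoblast peaks at 565 of 931 MyoG-lacking regions (60.7%), RUNX1 at 215 and MyoD at 151. Where MyoG was present, MyoD led at 42.3% of regions and c-Jun at 28.2%.

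**Figure D1:**
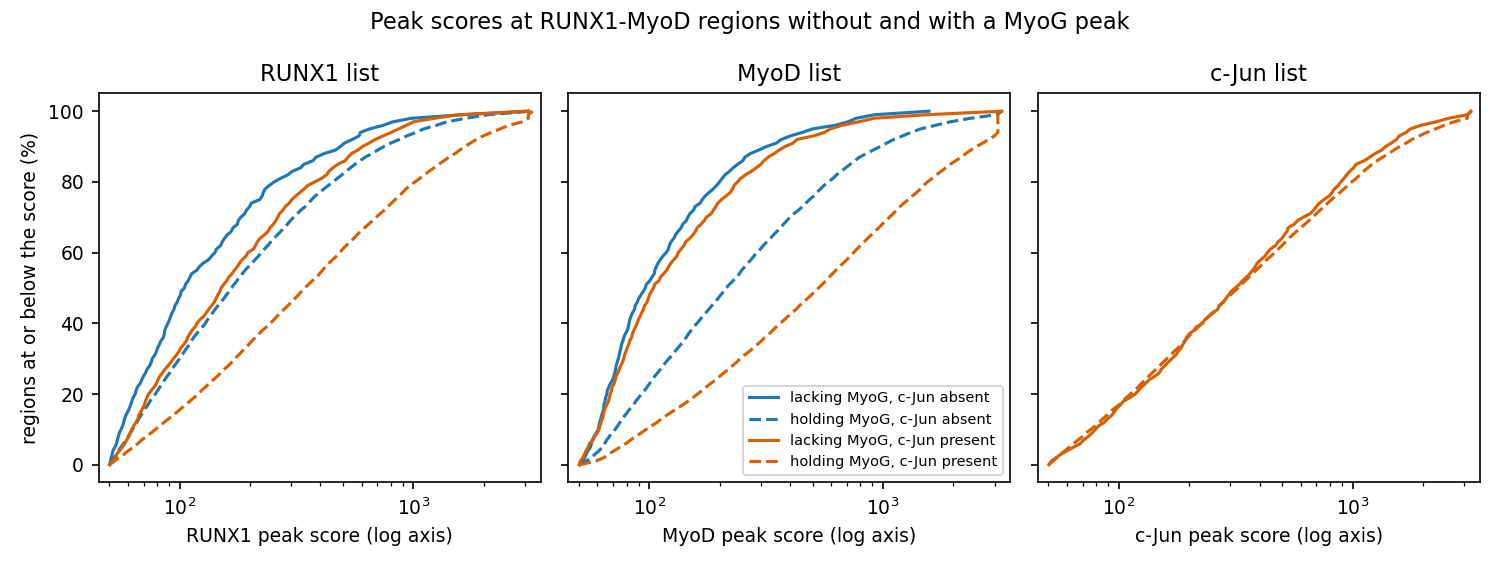
Cumulative distributions of the peak score (x axis, log scale, authors' units) in the RUNX1, MyoD and c-Jun lists at RUNX1-MyoD regions lacking (solid) or holding (dashed) a MyoG peak; the y axis is the percent of regions at or below a score. The solid MyoD curves lie far to the left of the dashed ones (medians 96.2 and 104.3 against 213.2 and 529.7), while both c-Jun curves nearly coincide.

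**Figure D2:**
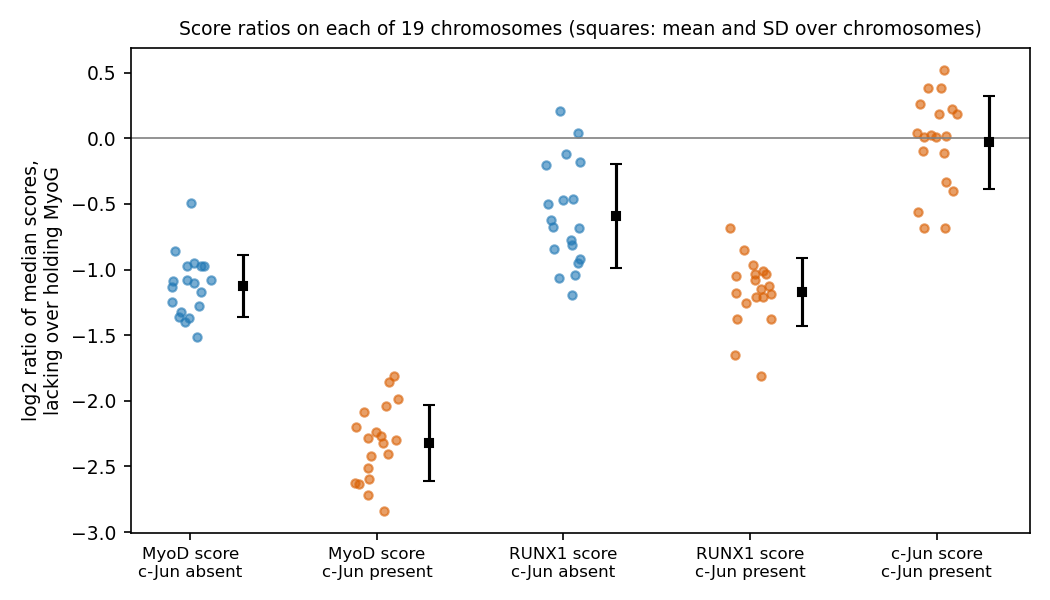
Log2 ratio of the median score at regions lacking over regions holding MyoG on each of 19 chromosomes (points), with the mean and SD over chromosomes (squares and bars). All points for MyoD lie below 0, from -2.84 to -0.49 over both c-Jun states, and the c-Jun points scatter from -0.68 to 0.52 around 0.

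The MyoG-lacking regions were set against regions bound by fewer factors, which for those with c-Jun were sites of either factor with c-Jun. Where c-Jun was absent, median RUNX1 and MyoD scores lay near those of sites of either factor by itself. Without c-Jun, the median RUNX1 score of 104.7 compared with 106.3 at the 10565 regions of RUNX1 alone, and the median MyoD score of 96.2 with 85.1 at the 6301 regions of MyoD alone. With c-Jun, the median RUNX1 score of 150.3 compared with 188.3 at the 5104 regions of RUNX1 and c-Jun alone, and was lower on 16 of 19 chromosomes. The median MyoD score of 104.3 compared with 112.2 at the 2175 regions of MyoD and c-Jun alone. The c-Jun score was the one that stood higher than at these sites. Its median of 315.0 was 1.56 times that of RUNX1 and c-Jun alone (201.9) and 2.00 times that of MyoD and c-Jun alone (157.3), each higher on 19 of 19 chromosomes.

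The share of RUNX1-MyoD regions that lacked MyoG was then followed over 10 equal classes of each score. In the lowest MyoD class, with scores up to 76.6, MyoG was missing from 16.3% (95% interval 14.1 to 18.7) of regions without c-Jun and from 32.1% (29.0 to 35.4) of regions with c-Jun. In the fifth class, with scores from 222.4 to 320.7, these shares were 4.15% (2.89 to 5.75) and 8.69% (7.04 to 10.6). In the highest class, MyoG was missing from 0 of 211 regions without c-Jun, which allows a share of up to 1.42% by the limit of 3 counts and 1.73% by the exact interval, and from 5 of 1645 with c-Jun (0.304%). Classes 1 to 3 held 958 of the 1412 MyoG-lacking regions (67.8%) and classes 8 to 10 held 50. Even in the lowest MyoD class most regions carried MyoG, with median MyoG scores of 268.6 without c-Jun and 180.6 with it. These medians rose with every MyoD class, to 2032 and 2037 in the highest, so MyoG peaks were weakest where MyoG was most often missing.

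Over the RUNX1 score the share ran less steeply, from 10.9% in the lowest to 3.15% in the highest class without c-Jun and from 16.5% to 0.874% with c-Jun. Over the c-Jun score it had no slope of that kind: it was 6.97% (5.57 to 8.61) in the lowest class, between 7.77% and 9.25% in classes 2 to 9, and 5.84% (4.56 to 7.36) in the highest. The intervals of the lowest and the highest c-Jun class overlapped. That of the highest lay below those of class 6 (9.08%, 7.48 to 10.9) and class 8 (9.25%, 7.63 to 11.1). These shares were taken over all MyoD scores together.

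**Figure D3:**
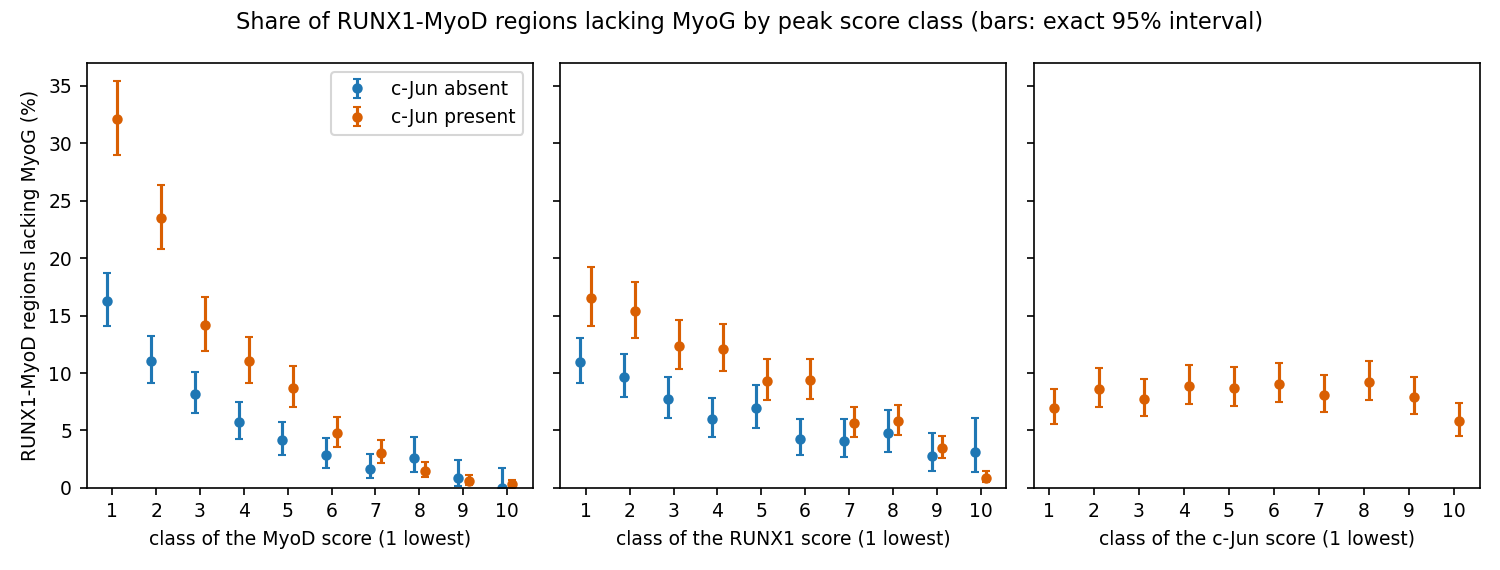
Percent of RUNX1-MyoD regions lacking a MyoG peak (y axis) in 10 classes of the MyoD, RUNX1 and c-Jun score (x axis, 1 lowest), without (blue) and with (orange) c-Jun, with exact 95% intervals. The share falls from 32.1% to 0.304% along the MyoD score with c-Jun and stays between 5.84% and 9.25% along the c-Jun score.

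MyoD and RUNX1 strength were also crossed, in 5 classes each. Where both were in the lowest class, MyoG was missing from 41.3% (36.0 to 46.7) of 344 regions with c-Jun and from 18.2% (15.3 to 21.4) of 649 regions without it. With the MyoD score still in the lowest class and RUNX1 in the highest, the shares were 10.1% (7.15 to 13.8) and 8.16% (4.29 to 13.8). At the other corner, with the MyoD score highest and RUNX1 lowest, they were 1.85% and 1.82%. The intervals of both c-Jun states were thus separate where both other peaks were weak, and they overlapped at both of these corners. Separate intervals were not limited to the weakest cell. With MyoD class 1 and RUNX1 class 4 the shares were 22.1% (17.8 to 26.9) with c-Jun and 12.2% (8.64 to 16.6) without. With MyoD class 3 and RUNX1 class 1 they were 12.4% (9.26 to 16.1) and 5.15% (3.21 to 7.76). The share with c-Jun was the larger one in 21 of 25 cells.

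**Figure D4:**
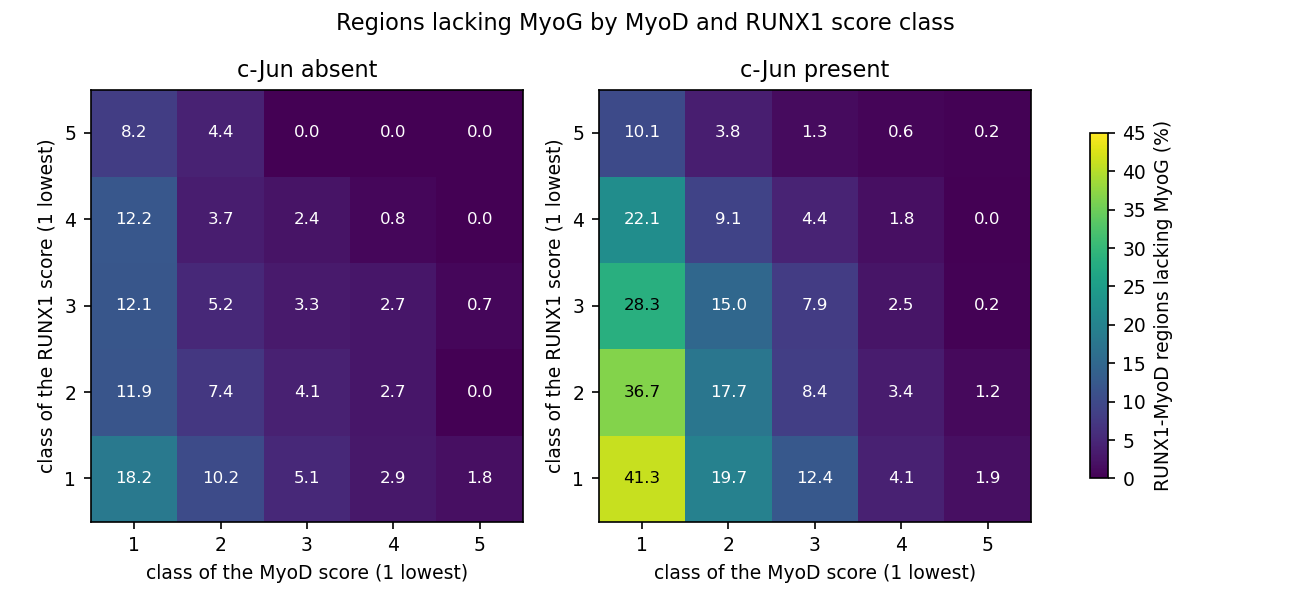
Percent of RUNX1-MyoD regions lacking MyoG (colour and printed value) in 5 classes of the MyoD score (x axis) by 5 classes of the RUNX1 score (y axis), without and with c-Jun. Shares are highest at the lower left, 18.2% without and 41.3% with c-Jun, and the share with c-Jun is the larger one in 21 of 25 cells.

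Presence of c-Jun was tested, since the rule keeps regions with and without it. The rule is not wholly independent of c-Jun, because c-Jun peaks take part in the merging and joined RUNX1 to MyoD at 48 of the MyoG-lacking regions. A c-Jun peak lay at 65.9% (63.4 to 68.4) of the MyoG-lacking regions and at 61.4% (60.7 to 62.2) of the RUNX1-MyoD regions with MyoG. The log2 odds ratio was 0.28 (95% interval 0.12 to 0.45, two-sided Fisher's exact p = 0.000772, adjusted p = 0.000772 over 2 tests), above 0 on 16 of 19 chromosomes. Where only regions with RUNX1 and MyoD peaks that overlap each other were kept, it was 0.22 (Fisher's exact p = 0.00927). These p-values take regions as the units and say nothing of the spread between cultures. The call depended on how peaks were joined: with centres within 150 bp the log2 odds ratio was -0.01 (Fisher's exact p = 0.928), and with only peaks of score 100 or more it was 0.13 (Fisher's exact p = 0.186).

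At equal MyoD strength the difference was larger. With 10 classes by MyoD score as strata, the Mantel-Haenszel log2 odds ratio was 1.07 (0.90 to 1.25), and with centres within 150 bp and the same strata it was 0.35. The share lacking MyoG was larger with c-Jun in 8 of 10 MyoD classes, and in 5 of these the intervals of both states did not overlap. In the lowest 5 classes, RUNX1-MyoD regions without c-Jun thus carried MyoG more often than those with c-Jun. In classes 8 and 9 the share lacking MyoG was larger without c-Jun, 2.60% against 1.47% and 0.833% against 0.602%, with overlapping intervals. The pooled odds ratio thus covers classes of both directions.

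Within classes of the MyoD score, the other 2 factors moved in opposite directions. Among regions with c-Jun, the median RUNX1 score was lower where MyoG was missing in 10 of 10 classes, with log2 ratios between -1.01 and -0.94 in classes 1 to 6. Among regions without c-Jun it was lower in all 9 classes that held such regions, with log2 ratios between -0.87 and -0.40 in classes 1 to 6. The median c-Jun score was higher where MyoG was missing in 8 of 10 classes, with log2 ratios between 0.16 and 0.60. It was lower in classes 9 and 10, which held 9 and 5 MyoG-lacking regions. In the third class, for example, the median c-Jun score was 345.1 at 126 regions without MyoG and 227.5 at 762 with it, and the median RUNX1 scores were 168.7 and 329.2. These are descriptions of the same lists and were not tested.

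The arrangement of the peaks was compared by the distance between peak centres. RUNX1 and MyoD centres lay a median of 160.5 bp apart at MyoG-lacking regions without c-Jun and 152 bp apart with c-Jun, against 110.5 bp and 139 bp where MyoG was present. These centres lay within 150 bp of each other at 229 of 481 regions (47.6%) without c-Jun and 462 of 931 (49.6%) with it, against 3967 of 6615 and 5541 of 10532 (52.6%) where MyoG was present. RUNX1 and MyoD peaks overlapped each other at 481 of 481 regions without c-Jun and at 883 of 931 with it. The other 48 (5.16%) were joined only through the c-Jun peak, against 149 of 10532 (1.41%) in regions with all 4 factors, where c-Jun or MyoG could join them.

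In the MyoG-lacking regions c-Jun lay nearer to RUNX1 than to MyoD. The RUNX1 to c-Jun distance had a median of 109 bp and the MyoD to c-Jun distance one of 144.5 bp, with the RUNX1 distance smaller on 15 of 19 chromosomes. Where MyoG was present the medians were 140.5 bp and 129.5 bp. The c-Jun centre was nearer to RUNX1 at 543 of the MyoG-lacking regions and nearer to MyoD at 386, with 2 ties (58.4% nearer to RUNX1, 95% interval 55.2 to 61.6), against 50.8% (49.8 to 51.8) of those with MyoG. The log2 odds ratio was 0.45 (two-sided Fisher's exact p = 8.3e-06, adjusted p = 1.66e-05 over 2 tests), and the share was larger without MyoG on 16 of 19 chromosomes. This test was chosen after the distances were seen, so its p is no independent evidence of the difference. In 10 classes of the MyoD score the log2 odds ratio was 0.15 (Mantel-Haenszel chi-square p = 0.163), so the difference was not called at equal MyoD strength. In 10 classes of the RUNX1 score it was 0.53 (Mantel-Haenszel chi-square p = 1.7e-07). Both stratified values come from the same contrast, so their p-values are no independent evidence either.

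RUNX1 and MyoD peaks of the MyoG-lacking regions also had smaller median widths. With c-Jun, RUNX1 peaks had a median width of 829 bp where MyoG was missing and 1054 bp where it was present, MyoD peaks 751 bp and 944 bp, and c-Jun peaks 1216 bp and 1229 bp. Without c-Jun, the widths were 818 bp and 903 bp for RUNX1 and 717 bp and 832 bp for MyoD. The c-Jun medians differed by much less than those of RUNX1 and MyoD, and no width was tested.

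MyoG was absent from these regions but seldom far away. The gap from a region's edge to the nearest MyoG peak had a median of 7347 bp without c-Jun and 7341 bp with c-Jun. It was at most 1 kb at 67 regions (13.9%) without c-Jun and 108 (11.6%) with it, at most 10 kb at 56.5% and 57.9%, and above 100 kb at 13 and 23 regions. In this respect the regions resembled those of RUNX1 alone, with a median gap of 7439 bp and 12.5% within 1 kb, more than those of MyoD alone, with 10671 bp and 9.08%. Regions of MyoD and c-Jun alone had a median gap of 10869 bp. None of these gaps was tested.

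**Figure D5:**
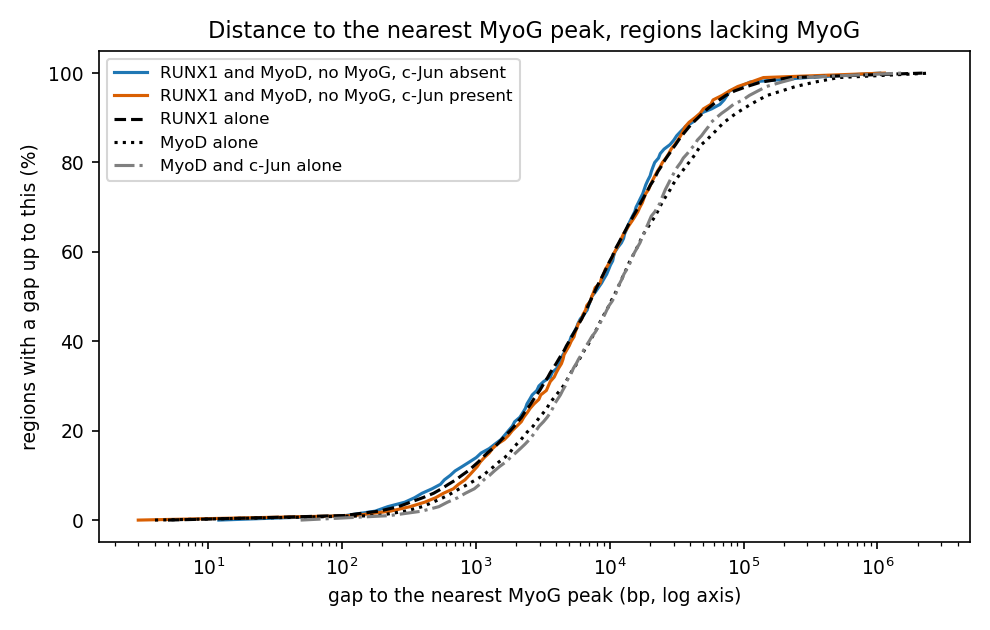
Cumulative percent of regions (y axis) by the gap to the nearest MyoG peak (x axis, bp, log scale) for RUNX1-MyoD regions lacking MyoG in both c-Jun states and for 3 kinds of region bound by fewer factors. The coloured curves run with that of RUNX1 alone (medians 7347, 7341 and 7439 bp), to the left of those with MyoD but no RUNX1 (10671 and 10869 bp).

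Within 100 bp, the boundary of the rule was thinly filled. Just inside it, 13 of the 1412 regions had a MyoG peak within 100 bp of their edge, with a median MyoG score of 149.5. Within 1 kb there were 175 such regions (12.4%), with a median score of 136.4 for the nearest MyoG peak. Just outside the boundary, 2 of the 17147 RUNX1-MyoD regions with MyoG shared 100 bp or less with their MyoG peak. The median shared stretch of the 17147 was 758 bp. The closest cases inside were a region at chr18:48315832-48317279, 3 bp from a MyoG peak of score 100.2, and one at chr11:115881173-115882405, 12 bp from a MyoG peak of score 149.5. The closest case outside, at chr14:78837077-78838433, shared 46 bp with a MyoG peak of score 120.2. Only 1.41% of the regions with MyoG had a MyoG score under 60, near the lowest score of the list.

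The surroundings held somewhat fewer MyoG, RUNX1 and MyoD peaks by their medians. Within 50 kb of a region's middle, own peaks left out, the MyoG-lacking regions had a median of 4 MyoG peaks in both c-Jun states, against 6 and 7 around regions with MyoG. The medians for RUNX1 were 3 and 3, against 4 and 4, and those for MyoD 3 and 3, against 4 and 5. For c-Jun the median was 3 on both sides without c-Jun, and 3 against 4 with it. The c-Jun means were lower in both states, 3.52 against 3.91 and 3.58 against 4.35. No MyoG peak lay within that distance of 43 regions without c-Jun (8.94%) and 79 with it (8.49%), against 4.07% and 3.53% where MyoG was present. A region with RUNX1, MyoD and MyoG lay within 10 kb of 145 (30.1%) and 243 (26.1%) of the MyoG-lacking regions, and another MyoG-lacking region within 10 kb of 11 and 33. Within 50 kb, these counts were 329 (68.4%) and 602 (64.7%) for a region with MyoG and 49 and 99 for another without it. RUNX1-MyoD regions with MyoG numbered 17147 against 1412 without it, so the counts of both kinds cannot be compared directly.

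Few of them shared a window of 100 kb. The 1412 regions fell into 1340 such windows, of which 69 held at least 2 and 3 held 3. One of the 3, at chr19:47500001-47600000, also held 10 RUNX1-MyoD regions with MyoG. The others, at chr4:88700001-88800000 and chr4:130400001-130500000, held none with MyoG, although 1 and 7 MyoG peaks lay in them. The 230 windows with at least 5 RUNX1-MyoD regions carrying c-Jun, the clusters richest in such sites, held 71 MyoG-lacking regions, 5.03% of these, and 8.64% of all RUNX1-MyoD regions.

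The MyoG-lacking regions were ranked by the worse of their RUNX1 and MyoD ranks within the lists, which held 42781 and 45951 peaks over all chromosomes. The worse rank of the eighth region was 16501 without c-Jun and 10840 with it. No such ranks are given for regions with MyoG. Without c-Jun the best was chr6:117625238-117626934, with a RUNX1 score of 588.9, a MyoD score of 561.0 and the nearest MyoG peak 11910 bp away. The next, at chr4:43037307-43038979, had scores of 462.7 and 756.8 with centres only 3 bp apart. At chr7:142093229-142094360 they were 336.8 and 882.8. The fourth to the eighth were chr14:31892276-31893534, chr1:39200459-39201902 and chr1:186937290-186938267, chr3:100488950-100490628 and chr14:117886016-117887010, with RUNX1 scores from 261.2 to 397.4 and MyoD scores from 350.6 to 848.5. The worse rank of the best region was 9843, so at every region without c-Jun at least 1 of the 2 peaks ranked 9843 or lower in its list.

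With c-Jun the strongest pairs were higher. The first, at chr4:134066337-134068228, had a RUNX1 score of 875.2, a MyoD score of 1702 and a c-Jun score of 190.9, and a MyoG peak of score 96.8 lay 1009 bp from its edge. The second, at chr4:135157002-135158491, had scores of 952.3, 992.3 and 587.0 in that order. At chr2:126147887-126149033 a MyoD peak at 3100 stood beside a RUNX1 peak of 771.7 and a c-Jun peak of 373.3, with the nearest MyoG peak 18506 bp away. The region at chr10:82325393-82327231 had a RUNX1 score of 1228, a MyoD score of 865.8 and a c-Jun score of 81.9. The fifth to the eighth were chr1:81722528-81724039, chr8:4251631-4254060, chr8:97859575-97860844 and chr3:107068753-107070685. Their RUNX1 scores ran from 441.9 to 854.9, and the last of them had the highest c-Jun score of the 8, 1554.

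The 3 strongest MyoD peaks of each state mostly stood beside weak or moderate RUNX1 peaks. Across all MyoG-lacking regions, RUNX1 lay above its list median at only 31.0% without c-Jun and 43.7% with it. The highest MyoD score, 3224, lay at chr11:81984865-81985930 beside a RUNX1 peak of 62.3 and a c-Jun peak of 67.4. At chr10:90839052-90840138 a MyoD score of 2417 met a RUNX1 score of 99.3, and the nearest MyoG peak, 134219 bp away, had a score of 2488. Without c-Jun the highest MyoD score was 1572, at chr4:150307384-150308740, with a RUNX1 score of 83.0. Among the 3 highest MyoD scores of each state, the RUNX1 score was above 200 at 2 regions: that on chromosome 2 given above and one at chr7:82337232-82338173, with 1142 for MyoD and 247.0 for RUNX1.

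The 3 RUNX1 peaks named as strongest in each state stood beside MyoD peaks below the median of the MyoD list. This was the common case: MyoD lay above that median at only 23.7% of all MyoG-lacking regions without c-Jun and 29.8% with it. At chr15:98351293-98352450 a RUNX1 score of 3107 met a MyoD score of 53.9, with centres 38 bp apart. At chr12:66136897-66139313 a RUNX1 peak at 3100 met a MyoD peak of 52.8 and a c-Jun peak of 1047, and at chr14:17196178-17199032 one at 3100 met a MyoD peak of 132.7. With c-Jun, 4 RUNX1 peaks scored 3100 or more, so those named at exactly 3100 were picked among ties. Without c-Jun, the 3 highest RUNX1 scores were 3100, 2684 and 2611, at chr2:153170790-153172941, chr7:121260112-121262784 and chr13:63531790-63533636. Their MyoD scores were 76.0, 155.1 and 133.0, and their RUNX1 and MyoD centres lay between 681.5 and 1077 bp apart. Across all MyoG-lacking regions the rank correlation of the RUNX1 and MyoD scores was -0.01 without c-Jun (n = 481) and -0.02 with it (n = 931), as a description over regions of the same libraries.

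The highest c-Jun scores also stood beside weak MyoD peaks. They were 3204, 3124 and 3102, at chr6:91661202-91664057, chr17:71095655-71098364 and chr16:8810408-8811730, with MyoD scores of 85.5, 68.1 and 99.8 and RUNX1 scores of 326.9, 532.4 and 325.6. Across all 931 MyoG-lacking regions with c-Jun, the rank correlation of the MyoD and c-Jun scores was 0.03. Of the 3 widest regions with c-Jun, the first 2 also paired a strong c-Jun peak with a weak MyoD peak. At chr6:136845899-136849951, 4053 bp long, a c-Jun peak of 1428 and a MyoD peak of 79.3 had the RUNX1 and MyoD centres 2466 bp apart. At chr12:100231531-100235558 a c-Jun peak of 1846 met a MyoD peak of 85.8. The third, at chr10:80780854-80784585, had a MyoD peak of 61.2 but a c-Jun peak of 117.9, below the list median of 172.5. Farthest from any MyoG peak lay a region at chr8:22040707-22041887, 1129017 bp away, with a RUNX1 score of 971.3, a MyoD score of 92.7 and a c-Jun score of 514.6. Without c-Jun the farthest was chr1:147804602-147805816, 1043580 bp away, with scores of 124.6 for RUNX1 and 413.8 for MyoD.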

How the data were processed

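The authors deposited 1 peak list per factor, with a score per peak from software whose peak names begin with MACS, per the file contents. CASAVA 1.7.0 and 1.8.2, Bowtie and the build mm9 are named per the submitters' processing notes. The caller's version, settings and controls and the handling of replicates were not given in the sources used here. By name, the RUNX1, MyoD and c-Jun lists were matched to the labels, and the MyoG list, under an abbreviation, by elimination. Control libraries were not analysed here.

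Starts were converted to count from 1. Peaks of chromosomes 1 to 19 were joined as described in the report, and the highest score per factor was kept. Shares were tested with two-sided Fisher's exact tests, adjusted over 2 tests by the Benjamini-Hochberg method, and stratified with the Mantel-Haenszel estimator in 10 classes of equal size. Scripts used Python 3.11.15, pandas 2.3.3, scipy 1.17.1 and statsmodels 0.14.6 and were checked on made-up data. Named regions were, per c-Jun state, the 8 with the best worst rank of the RUNX1 and MyoD scores, the 3 highest scores of each factor, the 3 nearest to and 3 farthest from a MyoG peak and the 3 widest, plus 3 windows of 100 kb by their number of regions. The text gives the leading ones of the last 3 kinds. Regions, classes and rules were chosen with earlier results of these data known. Genes, motifs and sequences at the regions were not analysed here, since the annotation at hand was of another build than mm9.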

Additional observations from a re-analysis of the deposited data

Results flagged for a closer look

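Chromosome X lay outside the rule. By the same definition it held 14 RUNX1-MyoD regions lacking MyoG among 166 (8.43%, exact 95% interval 4.69 to 13.7), 7 of them with c-Jun, where a count of 0 would have allowed 3. Their RUNX1 scores ran from 57.6 to 464.8 and their MyoD scores from 57.6 to 406.3.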

How the results depend on the processing

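Of 77 alternatives, 64 left the result's sign and its call in place, a count within 1.5 times or a value within 1 SD over chromosomes, and 13 did not. Odds ratios counted by sign and call only, not by size. The log2 odds ratios of c-Jun in 10 MyoD score, RUNX1 score and width classes, 1.07, 0.70 and 0.62, are therefore among the 64. The main value was 0.28, with an SD of 0.25 over chromosomes. With centres within 150 bp, which also drops overlapping MyoG or c-Jun peaks whose centres lie farther off, 597 regions with c-Jun were found in place of 931. Regions without c-Jun rose to 650 in place of 481, so they became the larger group. The log2 odds ratio of c-Jun turned to -0.0092 (Fisher's exact p = 0.928). The log2 ratios of the median score were then -0.70 for MyoD and -0.093 for RUNX1 without c-Jun, and -1.92 and -0.84 with it, and the median gap to a MyoG peak was 1652 bp in place of 7345 bp. With peaks of score 100 or more there were 555 regions with c-Jun, a log2 odds ratio of c-Jun of 0.13 (Fisher's exact p = 0.186), a MyoD log2 ratio of -1.85 with c-Jun and a median gap of 11326 bp, fewer peaks being used by construction. Regions within 1000 bp of a MyoG peak left out, the median gap was 9575 bp by construction. In 10 MyoD score classes the log2 odds ratio of c-Jun lying nearer RUNX1 was 0.15 (Mantel-Haenszel chi-square p = 0.163), and the cause was not tested. The stretch of chromosome 2 where wide MyoD peaks run together held 0 of the 1412 regions, so leaving it out changed no count. Its alternatives among the 64 could therefore hardly differ. Under direct overlap of RUNX1 and MyoD, the count of 481 without c-Jun was fixed by construction. The direct overlap of RUNX1 and MyoD, RUNX1 score classes, score classes combined with a joining rule, and all alternatives of the c-Jun distance, c-Jun score and gap were added after seeing the data. No paired analysis was possible because each factor had 1 list with no value for a single replicate, and leaving out a replicate was not run for the same reason. Motif windows were not run, since no genome of build mm9 was used. Depth is unknown, so a missing peak does not show that a factor was absent.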
